A study of Homo sapiens with 60 samples.

Results

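The enzymes that build cholesterol, the proteins that sense, move and store it, and the liver X receptor (LXR) genes that dispose of it are described here in A549, a human cell line from a lung carcinoma, treated for 24 h with herbal extracts. The members are 30 genes listed by symbol, of 60675 gene identifiers in the count table, and all 30 were found and tested. The list was made with earlier results of these data known. The question was which extracts raised and which lowered the targets of the transcription factor SREBP2, and whether the LXR genes moved beside them.

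The extract groups were 8 extracts at a low, a medium and a high dose. Soshiho-tang and Yijin-tang, decoctions of several herbs, were hot water extracts, and the other 6 were ethanol extracts of single herbs. Doses were 20, 100 and 500 µg/mL for Soshiho-tang (2 libraries a dose), Yijin-tang, Zizyphi Semen, Longan Arillus, Liriopis seu Ophiopogonis Tuber (Liriopis Tuber below) and Schisandrae Fructus (3 libraries a dose each). Aucklandiae Radix was given at 14.8, 74 and 370 µg/mL and Polygalae Radix at 15.2, 76 and 380 µg/mL, with 1 library a dose. The reference was vehicle, 3 libraries, given as 0.1% DMSO in the labels and as 2% in the design text. All groups were the same unmodified line, and nothing in the labels ties replicates to separate cultures. The p-values thus rest on a spread between libraries that may be only technical.

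Cells hold their sterol level steady by feedback. When sterol in the endoplasmic reticulum is low, SCAP escorts SREBP2, the product of SREBF2, to the Golgi, where it is cut, and the released part enters the nucleus and switches on the genes of sterol synthesis and uptake. INSIG1, itself a target, holds SCAP back when sterol is plentiful. Oxysterols activate the LXR receptors NR1H3 and NR1H2, which switch on the efflux pumps ABCA1 and ABCG1 and MYLIP, a ubiquitin ligase that marks the receptor for low density lipoprotein for breakdown.

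Promoters of 3 members that the results turn on are shown, because they differ in the letters associated with sterol control. They are the 250 bases before the start, 5′ to 3′ on the gene's strand, from RefSeq (GRCh38.p14). Capitals mark TCACNCCAC, CCAAT and GGGCGG on either strand, so CCAAT may read ATTGG and GGGCGG may read CCGCCC, and neighbouring GGGCGG matches may overlap. SREBF2 is at chr22:41832855-41833104 (+), INSIG1 at chr7:155297628-155297877 (+) and HMGCS1 at chr5:43313413-43313662 (-).
SREBF2: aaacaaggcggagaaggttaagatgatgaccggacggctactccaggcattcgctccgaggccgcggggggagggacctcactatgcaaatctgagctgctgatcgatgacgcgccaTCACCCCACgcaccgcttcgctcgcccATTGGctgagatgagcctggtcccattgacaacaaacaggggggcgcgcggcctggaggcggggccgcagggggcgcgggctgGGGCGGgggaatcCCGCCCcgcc
INSIG1: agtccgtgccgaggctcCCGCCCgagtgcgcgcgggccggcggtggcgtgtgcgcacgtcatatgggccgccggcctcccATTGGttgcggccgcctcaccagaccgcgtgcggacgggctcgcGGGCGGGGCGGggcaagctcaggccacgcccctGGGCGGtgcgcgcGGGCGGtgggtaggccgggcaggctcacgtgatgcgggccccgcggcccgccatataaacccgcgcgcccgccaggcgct
HMGCS1: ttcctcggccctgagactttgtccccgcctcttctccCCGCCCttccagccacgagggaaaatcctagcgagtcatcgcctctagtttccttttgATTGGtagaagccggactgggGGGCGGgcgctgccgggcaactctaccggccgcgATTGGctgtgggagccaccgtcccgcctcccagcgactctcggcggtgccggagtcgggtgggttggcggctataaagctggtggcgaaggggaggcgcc
SREBF2 held 1 TCACNCCAC, 1 CCAAT and 2 GGGCGG, INSIG1 held 1 CCAAT and 5 GGGCGG, and HMGCS1 held 2 CCAAT and 2 GGGCGG. Where a gene had several starts, the one with most matches is shown. Another start of HMGCS1 matched GGGCGG only. Of the 26 members matched in the RefSeq promoter table, 1 had TCACNCCAC within 250 bases before and 50 after a start, or 3.85%, against 1.39% of 27305 genes. CCAAT was in 19 of them (73.08%, against 39.72% of all genes) and GGGCGG in 24 (92.31%, against 48.3%). The exact AGGTCA repeat with 4 bases between, a form that LXR pairs bind, was in 0 of 26 member promoters. It was in only 7 of 27305 genes (0.03%), so 0 was to be foreseen for 26. Inexact forms of TCACNCCAC and of the repeat were not searched, nor were bases further out. The 1 and the 0 thus do not show that sterol or LXR sites are lacking. These matches describe letters only. ABCG1, ACAT2, FDFT1 and SQLE were not in the promoter table.

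The libraries held 18.003 to 33.8 M counts (M, units of 1e6), with a median of 23.9 M. Replicate 3 of the Soshiho-tang medium dose and replicate 3 of the Longan Arillus low dose stood apart: levels fell with gene length there (slope -0.37 and -0.41, against -0.08 to 0.06 elsewhere). Tests therefore used 51 libraries without both, and without Soshiho-tang medium replicate 2, which was then alone in its group. The fit with both libraries (54 libraries, common dispersion 0.0173 against 0.00244) is given beside the counts that it changes. That fit also called no more, and mostly fewer, of all genes, save where the Longan Arillus low dose was set directly against another group. Library names in the labels start with a code, called a set here, and the labels do not say what it stands for. Vehicle libraries had a set of their own, so set and extract cannot be told apart in comparisons with vehicle. Doses of 1 extract shared a set, and the high dose is set against the low one first. The 7 A549 markers were KRT8, KRT18, EPCAM, CDH1, NQO1, AKR1B10 and ALDH1A1. They summed to 16870 to 17210 counts per 1e6 counts, scaled by TMM factors (CPM), in vehicle. ALDH1A1 held 6363 to 6459 CPM of this, KRT8 3509 to 3734, KRT18 2760 to 2882, AKR1B10 2617 to 2716 and NQO1 1483 to 1498. CDH1 held 33.3 to 34.8 CPM and EPCAM 4.3 to 5.1 CPM in vehicle, so these 2 weigh little in the sum. There, CD3E, KDR and CYP3A4 were at 0, the 4 endothelial markers summed to 0.24 to 0.28 CPM, and the 4 hepatocyte markers to 0.06 to 0.14 CPM. The 6 fibroblast markers summed to 34.9 to 35.8 CPM there, of which COL1A1 held 28.7 to 30.8 CPM, and the 6 leukocyte markers to 2.10 to 2.27 CPM, of which CD14 held 2.03 to 2.13 CPM. In bulk RNA of this kind, fewer cells with a transcript and less RNA per cell cannot be told apart.

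In vehicle the members spanned a wide range of levels per kilobase of exon. HMGCS1, which makes HMG-CoA at the start of the mevalonate path, was highest at 36.5 ± 0.387 CPM per kb (SD, n = 3). SQLE, the squalene epoxidase, followed at 28.3 ± 0.609 CPM per kb, and CYP51A1, the lanosterol demethylase, at 28.0 ± 0.554 CPM per kb, and these 2 did not differ beyond their spread. The LXR genes were lower: NR1H2 (LXR beta) was at 11.1 ± 0.335, NR1H3 (LXR alpha) at 1.68 ± 0.104, MYLIP at 1.55 ± 0.121, ABCA1 at 1.33 ± 0.0326 and ABCG1 at 0.112 ± 0.0323 CPM per kb. ABCG1 had a mean of only 0.684 CPM, so its values carry a large counting error. Exons of 13 members overlap another annotated gene, 12 of them on the opposite strand, and the strand setting of the counting is not given in the sources used here. HMGCS1, CYP51A1, FDPS, FDFT1, SREBF2, IDI1, ACAT2, NPC1, LSS, STARD4, MVK, NR1H3 and TM7SF2 are uncertain to that extent.

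Soshiho-tang gave the widest rise. Of the 30 members, 17 were higher at the high than at the low dose and 0 lower, where 5.31% of the 17646 genes tested were called higher and 4.69% lower (edgeR, Benjamini-Hochberg adjusted p below 0.05). The median log2 change of the members was 0.32, and 26 of 30 were above 0, while the median of all genes was -0.001 and 49.6% were above 0. By role, 5 of 7 mevalonate genes, 7 of 12 genes of the squalene and sterol steps, INSIG1 and SREBF2 of the 3 sensors, STARD4 and NPC1 of the 3 transport and storage genes, and NR1H3 of the 5 LXR genes rose. In the 54-library fit 11 of the 17 were called, where 209 of 17826 genes were higher and 72 lower.

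INSIG1, which anchors SCAP in the endoplasmic reticulum, had 74.1 and 72.3 CPM at the high dose of Soshiho-tang, against 35.6 and 33.6 CPM at the low dose. Vehicle libraries had 37.9, 40.9 and 38.9 CPM. The groups did not overlap, and the change was 1.08 ± 0.067 on the log2 scale (SE, adjusted p = 8.24e-17, edgeR), the largest called change of the members in the 6 tested extracts.
MVD, which makes isopentenyl diphosphate, had 31.3 and 31.9 CPM at the high dose, against 19.02 and 19.04 CPM at the low dose, a log2 change of 0.73 ± 0.084 (adjusted p = 6.42e-09, edgeR). Both high libraries were above the 19.4 to 21.8 CPM of vehicle.
MSMO1, the sterol methyl oxidase, had 47.8 and 52.9 CPM at the high dose, against 30.8 and 31.3 CPM at the low dose (log2 change 0.70 ± 0.077). STARD4, a sterol carrier of the cytosol, had 39.9 and 39.2 CPM at the high dose, against 25.8 and 24.8 CPM at the low dose (log2 change 0.65 ± 0.071). In both genes every high library was above every low and every vehicle library. MVK, the mevalonate kinase, had 33.4 and 34.4 CPM at the high dose, against 22.6 and 22.2 CPM at the low dose (log2 change 0.60 ± 0.074).
HMGCS1 had 223.0 and 220.7 CPM at the high dose, against 163.1 and 164.3 CPM at the low dose (log2 change 0.44 ± 0.039). SQLE had 167.4 and 159.5 CPM at the high dose, against 132.5 and 119.8 CPM at the low dose (log2 change 0.38 ± 0.041). IDI1, the isopentenyl diphosphate isomerase, had 69.2 and 72.0 CPM at the high dose, against 53.6 and 54.8 CPM at the low dose (log2 change 0.38 ± 0.056). None of these 3 groups overlapped. For these and the genes above, the share of all genes without overlap was not counted, and 2 libraries a dose separate easily.

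The other called changes of Soshiho-tang were 0.49 in DHCR7, the enzyme of the last step to cholesterol, 0.46 in the squalene synthase FDFT1, 0.44 in the lanosterol synthase LSS, 0.40 in CYP51A1, 0.36 in FDPS, 0.31 in SREBF2, 0.30 in NPC1, which exports cholesterol from lysosomes, and 0.20 in NSDHL. NSDHL and NR1H3 lost their calls when 1 library was left out: NSDHL without low replicate 2 or 3 or high replicate 3, and NR1H3 without high or low replicate 2. The members without a call were ACAT2, PMVK, TM7SF2, HSD17B7, EBP, SC5D, LBR, SCAP, SOAT1, NR1H2, ABCA1, ABCG1 and MYLIP, with log2 changes of -0.14 to 0.32. SCAP, the escort of SREBP2, had 71.1 and 65.2 CPM at the high dose, against 66.9 and 71.1 CPM at the low dose. The medium library that did not stand apart, replicate 2 at 100 µg/mL, which entered no test, had 33.1 CPM of INSIG1 and 166.3 CPM of HMGCS1, near the low dose.

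Against vehicle, 18 members were higher at the high dose of Soshiho-tang and 1, LBR, was lower (log2 change -0.12 ± 0.046), where 10.7% of genes were higher and 11.7% lower. All 17 genes called against the low dose were among the 18, and SC5D was the added one. In the 54-library fit 13 were higher and 0 lower, where 539 of 17826 genes were higher and 366 lower. At the low dose 0 members were called lower than in vehicle, where 2.29% of genes were called lower. At an unadjusted p below 0.05 there were 9 members, against 15.5% of all genes, and DESeq2 called 0. The fibroblast markers moved with the dose of Soshiho-tang: they summed to 27.3 to 30.3 CPM at the high dose, against 37.0 to 37.2 CPM at the low dose. Their part in the result was not tested.

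**Figure D1:**
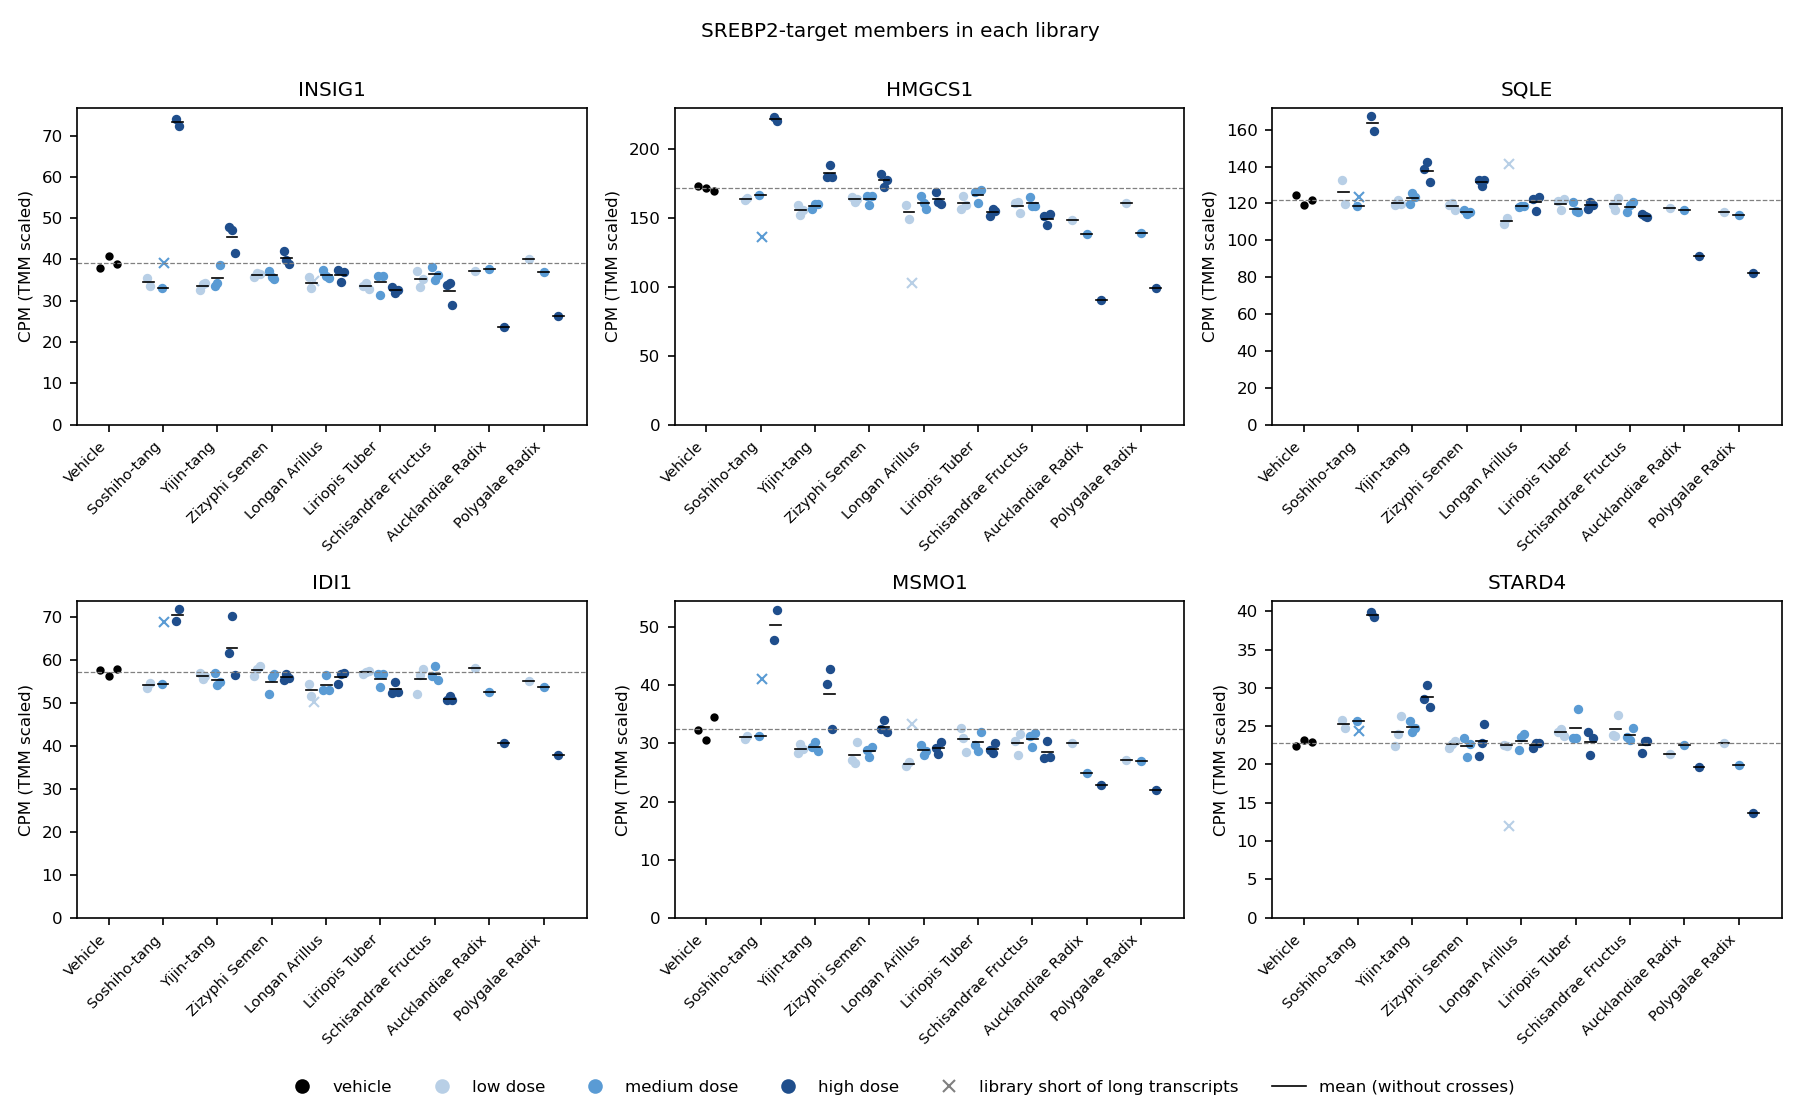
CPM of INSIG1, HMGCS1, SQLE, IDI1, MSMO1 and STARD4 (y axis) in each library of vehicle and of each extract, from the low to the high dose (x axis), with short lines for means, a dashed line for the vehicle mean and crosses for both libraries short of long transcripts. The 2 Soshiho-tang high libraries, at 72.3 and 74.1 CPM of INSIG1, are the highest of all 60, and for INSIG1 the high doses of Aucklandiae Radix and Polygalae Radix are the lowest.

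Yijin-tang moved part of the same genes by less. At the high against the low dose 12 of 30 members were higher and 0 lower, where 0.493% of genes were called higher and 0.533% lower. The members' median log2 change was 0.19, with 25 of 30 above 0, and the median of all genes was 0.0003. All 12 were among the 17 of Soshiho-tang, 12 of 12 and 12 of 17, an overlap that was not counted over all genes. In the 54-library fit 2 were called, INSIG1 and MSMO1, where 18 of 17826 genes were higher and 8 lower.

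INSIG1 had 47.8, 47.1 and 41.5 CPM at the high dose of Yijin-tang, against 32.6, 34.03 and 34.3 CPM at the low dose, and the groups did not overlap (log2 change 0.44 ± 0.057, adjusted p = 8.49e-07, edgeR). MSMO1 had 40.2, 42.8 and 32.4 CPM at the high dose, against 28.4, 29.8 and 28.96 CPM at the low dose (log2 change 0.41 ± 0.065). The lowest of these high libraries, replicate 3, was within the 30.5 to 34.5 CPM of vehicle. MVK had 29.4, 27.5 and 27.4 CPM at the high dose, against 20.9, 22.8 and 22.6 CPM at the low dose (log2 change 0.35 ± 0.062). STARD4 had 28.6, 30.3 and 27.5 CPM at the high dose, against 22.4, 24.0 and 26.3 CPM at the low dose (log2 change 0.25 ± 0.060). LSS had 43.6, 43.4 and 43.9 CPM at the high dose, against 37.1, 37.9 and 35.7 CPM at the low dose (log2 change 0.24 ± 0.038). Every high library was above every low library in these 5 genes, but the share of all genes without overlap was not counted.
HMGCS1 had 180.0, 188.7 and 179.9 CPM at the high dose, against 159.5, 152.1 and 155.6 CPM at the low dose (log2 change 0.23 ± 0.032). SQLE had 138.6, 142.3 and 131.5 CPM at the high dose, against 118.9, 121.8 and 119.9 CPM at the low dose (log2 change 0.20 ± 0.034). IDI1 had 61.8, 70.4 and 56.7 CPM at the high dose, against 57.0, 55.8 and 56.5 CPM at the low dose. IDI1 overlapped between doses and was not called (log2 change 0.16, adjusted p = 0.0756, edgeR). DHCR7, CYP51A1, FDFT1, FDPS and SREBF2 made up the 12, with log2 changes of 0.23, 0.21, 0.20, 0.18 and 0.14. SREBF2 lost its call without high or low replicate 2 or 3, and STARD4 without low replicate 1 or 2 or high replicate 2.

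At the medium against the low dose of Yijin-tang 0 of 30 members were called, where 0.00567% of all genes were, with 0 members (4.37% of all genes) at an unadjusted p below 0.05 and 0 called by DESeq2. Against vehicle, 12 members were higher at the high dose and 0 lower, where 3.19% of genes were higher and 4.35% lower. Of these, 10 were also called against the low dose. The count was 0 in the 54-library fit, where 51 of 17826 genes were higher and 46 lower. It was 13 by DESeq2, and 7 without Yijin-tang high replicate 2. HMGCS1 and INSIG1 were lower at the low dose than in vehicle, where 2.26% of genes were lower, and 0 members were called there in the 54-library fit.

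Both water extracts shared a set, so they were compared directly. At the high dose 15 members were lower with Yijin-tang than with Soshiho-tang and 0 higher, where 4.74% of genes were lower and 4.02% higher. INSIG1 was lower by 0.69 (log2 change -0.69 ± 0.060), STARD4 had -0.46 ± 0.064, MVD -0.40 ± 0.075 and MSMO1 -0.38 ± 0.069. The 54-library fit called 4, where 58 of 17826 genes were higher and 155 lower. The difference of the dose effects, Soshiho-tang minus Yijin-tang, was called in 8 members, all above 0, where 2.71% of genes were called in either direction. The 8 were HMGCS1, MVD, FDFT1, SQLE, DHCR7, INSIG1, STARD4 and NPC1. The count was 1, INSIG1, in the 54-library fit, where 46 of 17826 genes were above 0 and 5 below. It was 3 without Soshiho-tang high replicate 2.

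**Figure D2:**
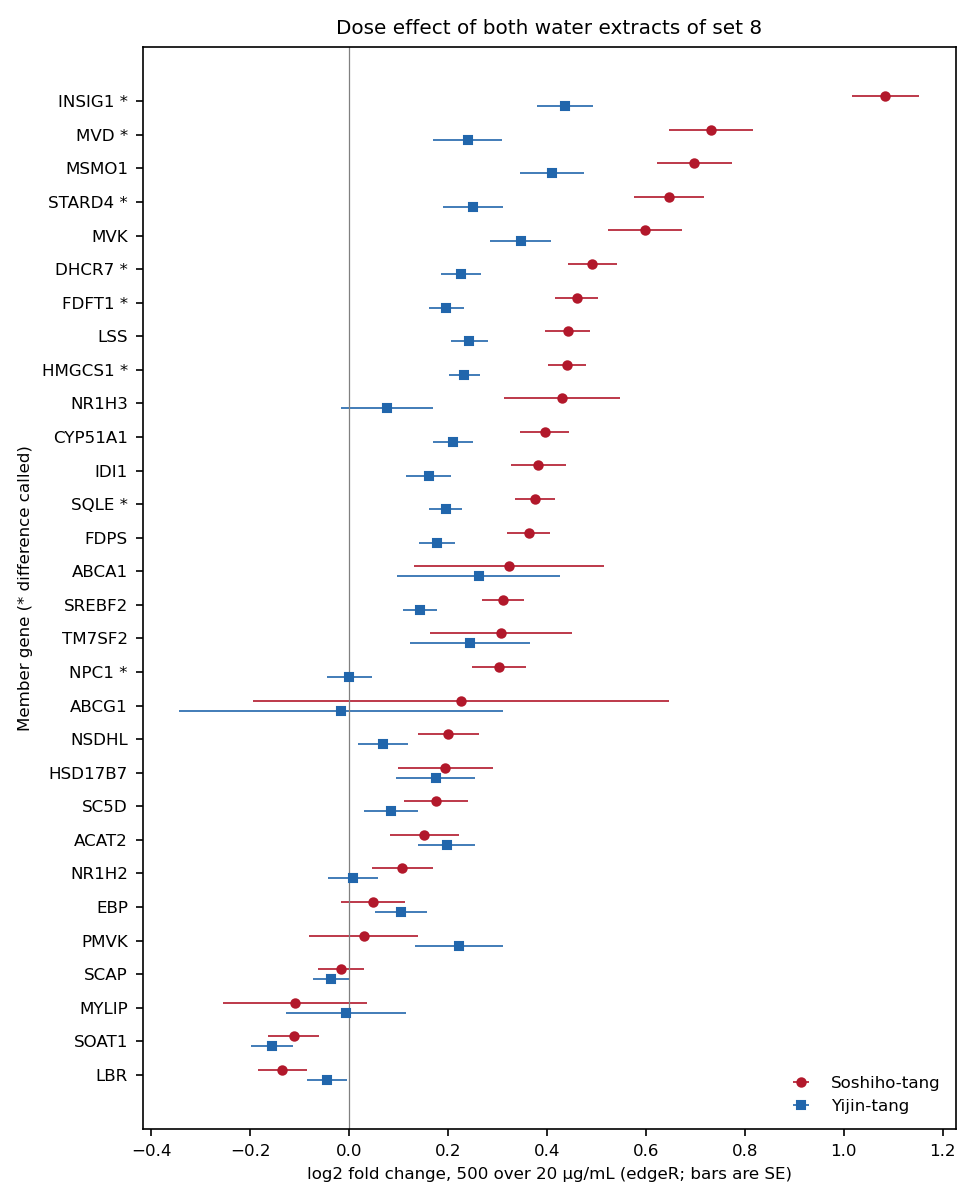
Log2 fold change of 500 over 20 µg/mL (x axis, edgeR, bars are SE) of the 30 members (y axis) for Soshiho-tang (circles) and Yijin-tang (squares), with stars on the 8 members whose dose effects differed. INSIG1 is at 1.08 for Soshiho-tang and 0.44 for Yijin-tang.

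Zizyphi Semen raised 4 members at the high against the low dose and lowered 0, where 0.453% of genes were higher and 0.725% lower. MVK had 25.4, 23.9 and 26.2 CPM at the high dose, against 20.8, 20.6 and 22.3 CPM at the low dose (log2 change 0.24 ± 0.062). CYP51A1 had 100.0, 101.6 and 98.4 CPM at the high dose, against 90.9, 88.5 and 89.8 CPM at the low dose (log2 change 0.16 ± 0.041). DHCR7 had 99.6, 97.8 and 99.1 CPM at the high dose, against 88.3, 89.6 and 88.9 CPM at the low dose (log2 change 0.15 ± 0.040). SQLE had 132.9, 129.5 and 132.5 CPM at the high dose, against 119.2, 120.1 and 116.2 CPM at the low dose (log2 change 0.15 ± 0.034). No group overlapped in these 4 genes, but the share of all genes without overlap was not counted. All 4 were among the genes raised by both water extracts, an overlap that was not counted over all genes. Leaving out any 1 of the 6 libraries left 1 or 2 of the calls, and the 54-library fit called 0.
INSIG1 had 42.0, 39.9 and 39.0 CPM at the high dose of Zizyphi Semen, against 35.8, 36.7 and 36.4 CPM at the low dose. HMGCS1 had 182.0, 172.8 and 177.4 CPM at the high dose, against 165.3, 161.4 and 164.0 CPM at the low dose. Neither gene was called (log2 changes 0.15 and 0.12). Neither group overlapped, but the share of all genes without overlap was not counted. IDI1 had 55.4, 56.9 and 55.9 CPM at the high dose, against 56.3, 58.1 and 58.6 CPM at the low dose, which overlapped.

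At the medium against the low dose of Zizyphi Semen 0 members and 0.0% of genes were called, with 0 members (3.41% of all genes) at an unadjusted p below 0.05 and 0 by DESeq2. Against vehicle, SQLE, DHCR7, FDFT1 and SREBF2 were higher at the high dose and PMVK, EBP, LBR, SOAT1 and ABCA1 lower, where 9.65% of genes were higher and 13.4% lower. Both shares of the members, 4 and 5 of 30, were not far above these backgrounds. SOAT1, which esterifies cholesterol for storage, had 57.9, 59.3 and 56.8 CPM at the high dose, against 66.0, 62.7 and 65.9 CPM in vehicle. These 9 fell to 5 without vehicle replicate 2 or 3. They fell to 0 in the 54-library fit, where 328 of 17826 genes were higher and 325 lower. At the low dose 7 members were lower than in vehicle, where 15.1% of genes were lower, a share of the members not far above that background, and 0 in the 54-library fit.

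Longan Arillus, of the same set, had 0 members called at the high against the low dose, where 0.0113% of genes were higher and 0.0793% lower. At an unadjusted p below 0.05 there were 5 members, against 10.9% of all genes, and DESeq2 called 2. INSIG1 had 37.5, 34.5 and 36.9 CPM at the high dose, against 35.8 and 33.0 CPM at the low dose. HMGCS1 had 168.6, 161.9 and 160.0 CPM at the high dose, against 159.3 and 149.5 CPM at the low dose. SQLE had 122.6, 116.1 and 123.6 CPM at the high dose, against 108.7 and 112.0 CPM at the low dose. IDI1 had 54.5, 56.8 and 57.0 CPM at the high dose, against 54.5 and 51.8 CPM at the low dose. None of these 4 was called. The high libraries were above both low libraries in HMGCS1 and SQLE, IDI1 hardly cleared them (54.55 against 54.47 CPM), and INSIG1 overlapped. The share of all genes without overlap was not counted. With low replicate 3 kept, in the 54-library fit, 2 members were higher and 4 lower, where 676 of 17826 genes were higher and 2668 lower. That library had 44.8 CPM of MVD and 17.9 CPM of LSS, far from the other 2.
The medium against the low dose had 0 members and 0.0% of genes called, with 2 members (6.57% of all genes) at an unadjusted p below 0.05 and 0 by DESeq2. Against vehicle, LBR and NR1H2 were lower at the high dose, where 5.76% of genes were higher and 8.61% lower. These 2 of 30 members were a share below that background. Of the members, 0 were called in the 54-library fit or without vehicle replicate 1 or 3 or Longan Arillus high replicate 2 or 3. At the low dose 8 members were lower than in vehicle and 0 higher, where 14.4% of genes were lower. With replicate 3 kept, in the 54-library fit, 6 were lower and 5 higher, where 2569 of 17826 genes were lower and 3828 higher. In both fits 4 members were called. Between the extracts, Longan Arillus high minus Zizyphi Semen high had 0 members called, where 0.289% of genes were higher and 0.459% lower. DESeq2 called 3 lower, and 11 had an unadjusted p below 0.05, against 10.2% of all genes. The difference of their dose effects had 0 members called, where 0.142% of genes were called, with 5 members (8.57% of all genes) at an unadjusted p below 0.05 and 0 by DESeq2.

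Schisandrae Fructus went the other way in 1 member. DHCR7 fell to 84.1, 80.8 and 78.2 CPM at the high dose, against 94.7, 91.6 and 89.4 CPM at the low dose (log2 change -0.18 ± 0.040, adjusted p = 0.00783, edgeR), and the groups did not overlap. It was the 1 member called, where 0.946% of genes were higher and 0.669% lower. The call was lost without low replicate 1 or high replicate 3 and in the 54-library fit. INSIG1 had 33.8, 34.3 and 28.9 CPM at the high dose, against 37.1, 33.4 and 35.3 CPM at the low dose. HMGCS1 had 151.1, 144.8 and 152.6 CPM at the high dose, against 160.6, 161.7 and 153.6 CPM at the low dose. SQLE had 114.3, 113.4 and 112.6 CPM at the high dose, against 118.9, 116.5 and 123.0 CPM at the low dose. IDI1 had 50.8, 51.6 and 50.8 CPM at the high dose, against 52.1, 56.6 and 58.0 CPM at the low dose. None of these 4 was called. INSIG1 overlapped between doses and HMGCS1, SQLE and IDI1 did not, but the share of all genes without overlap was not counted. The members' median log2 change was -0.07, with 7 of 30 above 0, and that of all genes was -0.003. At the medium against the low dose 0 members and 0.0% of genes were called, with 0 members (3.87% of all genes) at an unadjusted p below 0.05 and 0 by DESeq2.
Against vehicle 11 members were lower at the high dose of Schisandrae Fructus and 0 higher, where 5.19% of genes were lower and 4.39% higher. INSIG1 had a log2 change of -0.28 ± 0.056, ACAT2 of -0.20 ± 0.055 and HMGCS1 of -0.20 ± 0.032. The others, MSMO1, EBP, IDI1, LSS, DHCR7, FDPS, FDFT1 and SQLE, had -0.19 to -0.10. Of the 11, 9 were among the 18 that Soshiho-tang raised against the same vehicle libraries. The same overlap over all genes was not counted, and set and extract cannot be told apart in both comparisons. The count was 7 without vehicle replicate 1 or 3. It was 1, INSIG1, in the 54-library fit, where 107 of 17826 genes were higher and 74 lower. At the low dose HMGCS1 and FDPS were lower than in vehicle, where 4.22% of genes were lower, and 0 members were called in the 54-library fit.

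Liriopis Tuber, in the set of Schisandrae Fructus, had 0 members and 0.0% of genes called higher, and 0 members and 0.0% of genes called lower, at the high against the low dose. At an unadjusted p below 0.05 there were 4 members, against 5.25% of all genes, and DESeq2 called 0. INSIG1 had 33.3, 32.0 and 32.6 CPM at the high dose, against 33.7, 34.4 and 32.9 CPM at the low dose. HMGCS1 had 151.1, 156.5 and 155.3 CPM at the high dose, against 156.2, 166.0 and 159.6 CPM at the low dose. SQLE had 117.2, 120.5 and 119.2 CPM at the high dose, against 121.1, 116.2 and 122.2 CPM at the low dose. IDI1 had 52.5, 55.0 and 52.6 CPM at the high dose, against 56.9, 57.3 and 57.4 CPM at the low dose. INSIG1, HMGCS1 and SQLE overlapped. IDI1 was lower in every high library without a call, but the share of all genes without overlap was not counted. The medium against the low dose had 0 members and 0.0% of genes called, with 2 members (3.63% of all genes) at an unadjusted p below 0.05 and 0 by DESeq2.
Against vehicle, HMGCS1, PMVK, FDPS, LSS and INSIG1 were lower at the high dose, with log2 changes of -0.27 to -0.12, where 4.85% of genes were lower and 2.74% higher. They were 3 by DESeq2, 3 without vehicle replicate 1, vehicle replicate 2 or Liriopis Tuber high replicate 3, and 0 in the 54-library fit. INSIG1 was lower at the low dose too (log2 change -0.22 ± 0.057), where 2.45% of genes were lower, and was not called in the 54-library fit. At the high dose DHCR7 was higher with Liriopis Tuber than with Schisandrae Fructus (log2 change 0.18 ± 0.040) and was the 1 member called, where 1.31% of genes were higher and 1.85% lower. The 54-library fit called 0. The difference of the dose effects, Schisandrae Fructus minus Liriopis Tuber, had 0 members called, where 0.334% of genes were called, with 3 members (10.7% of all genes) at an unadjusted p below 0.05 and 0 by DESeq2.

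**Figure D3:**
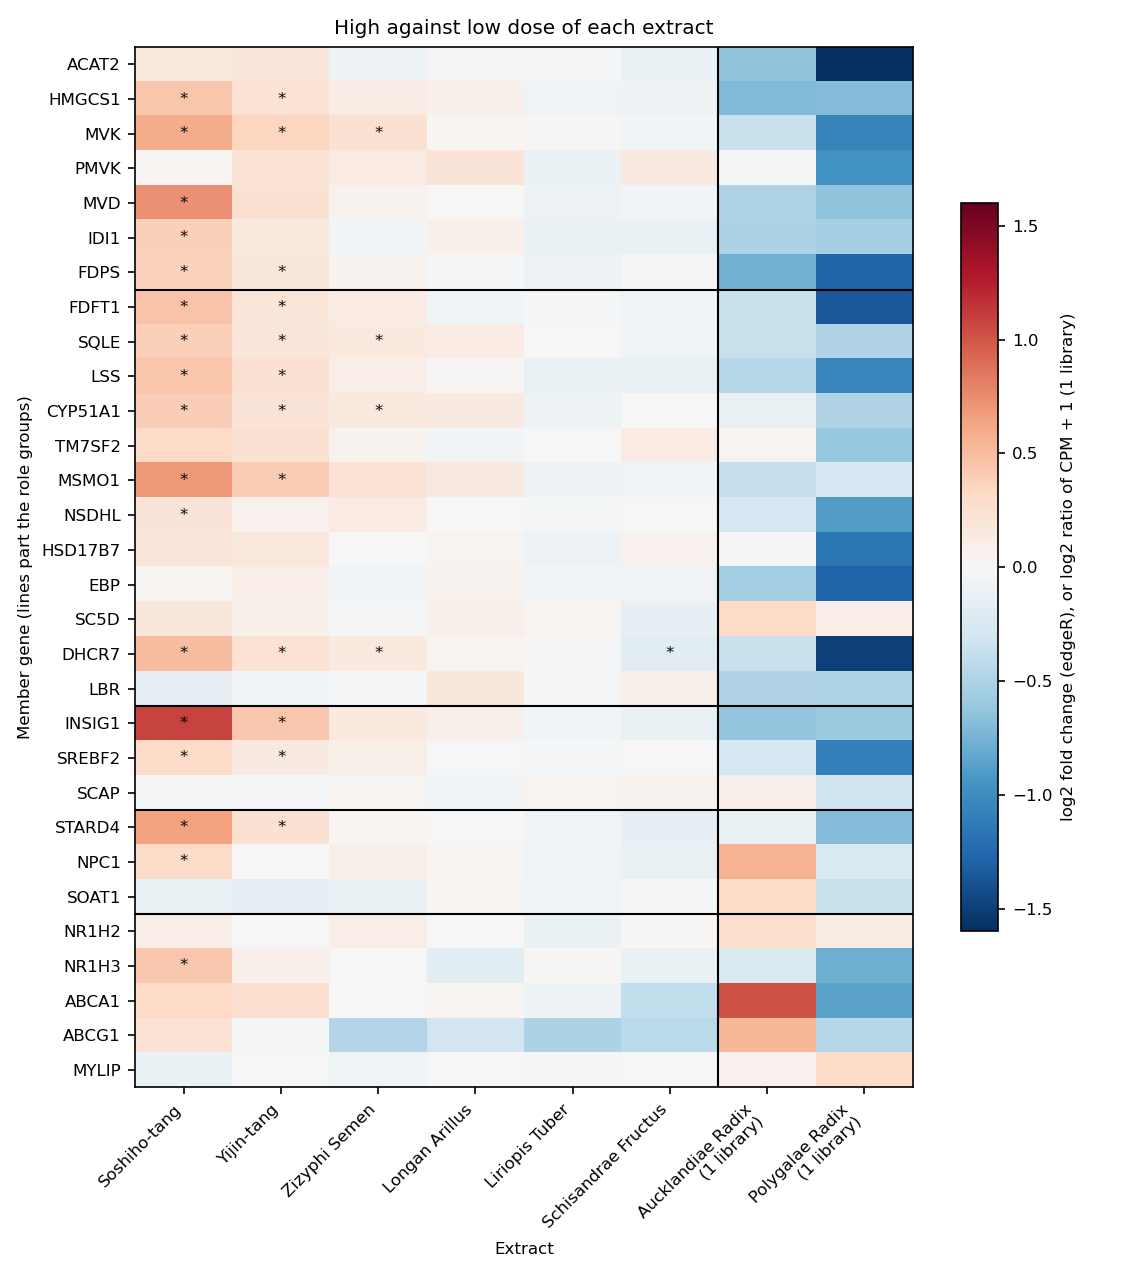
Log2 change of the high over the low dose for the 30 members (rows, by role) and 8 extracts (columns), with red for higher, blue for lower and stars for calls in edgeR. Soshiho-tang has 17 stars, Yijin-tang 12, Zizyphi Semen 4 and Schisandrae Fructus 1, and both extracts with 1 library a dose, which have no test, are mostly blue.

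The LXR target genes were not called at the high against the low dose in any of the 6 tested extracts (edgeR). Of the 18 pairs of ABCA1, ABCG1 or MYLIP and extract, 0 were called, 1 had an unadjusted p below 0.05, where 5.25% to 21.4% of all genes had by extract, and DESeq2 called 0. ABCA1 had 20.4 and 20.0 CPM at the high dose of Soshiho-tang, against 14.2 and 18.1 CPM at the low dose (log2 change 0.32 ± 0.19). It had 15.5, 17.7 and 15.8 CPM at the high dose of Yijin-tang, against 14.0, 12.9 and 14.1 CPM at the low dose (log2 change 0.26 ± 0.16). Neither pair of groups overlapped, but the share of all genes without overlap was not counted. The SE of ABCA1 was several times that of HMGCS1.
ABCA1 had 12.4, 10.5 and 12.3 CPM at the high dose of Schisandrae Fructus, against 15.0, 16.4 and 14.8 CPM at the low dose (log2 change -0.40). It had 16.9, 14.2 and 14.6 CPM at the high dose of Liriopis Tuber, against 16.5, 15.4 and 16.9 CPM at the low dose. The first pair of groups did not overlap, the second did, and neither was called. For Longan Arillus ABCA1 had 17.2, 10.7 and 9.0 CPM at the high dose, against 12.6 and 11.0 CPM at the low dose, the widest spread among high doses.
Zizyphi Semen had 12.2, 10.1 and 10.6 CPM of ABCA1 at the high dose, against 14.9, 14.9 and 15.5 CPM in vehicle, a log2 change of -0.46 ± 0.17 (adjusted p = 0.0394, edgeR). Its low dose had 12.5, 9.5 and 10.5 CPM (log2 change -0.47 ± 0.17 against vehicle), so both doses were below every vehicle library. In the 54-library fit neither was called. This was not particular to Zizyphi Semen. In Longan Arillus, of the same set, all retained libraries but replicate 1 of the high and medium dose (17.2 and 15.4 CPM) were below vehicle. The low and medium doses of Aucklandiae Radix and Polygalae Radix were too, at 10.8 to 13.2 CPM. Vehicle had a set of its own, so set and extract cannot be told apart here.

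NR1H3 was the 1 LXR gene called between doses. It had 9.7 and 8.8 CPM at the high dose of Soshiho-tang, against 6.7 and 7.1 CPM at the low dose (log2 change 0.43 ± 0.12, adjusted p = 0.0110, edgeR). These groups did not overlap, but the share of all genes without overlap was not counted. NR1H3 had 8.7, 9.0 and 9.8 CPM at the high dose of Yijin-tang, against 8.8, 8.4 and 8.8 CPM at the low dose, which overlapped. Over the 60 libraries NR1H3 ran from 4.6 to 14.1 CPM, and the 2 libraries short of long transcripts had the top values, 14.1 and 12.5 CPM.
MYLIP had 4.6 and 5.9 CPM at the high dose of Soshiho-tang, against 5.2 and 6.2 CPM at the low dose. In the other tested extracts its retained libraries ran from 4.1 to 6.3 CPM, without a call between doses. ABCG1 had 0.70 and 0.83 CPM at the high dose of Soshiho-tang, against 0.67 and 0.63 CPM at the low dose. Over all 60 libraries it ran from 0.25 to 1.33 CPM, and no change was detectable at this depth.

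**Figure D4:**
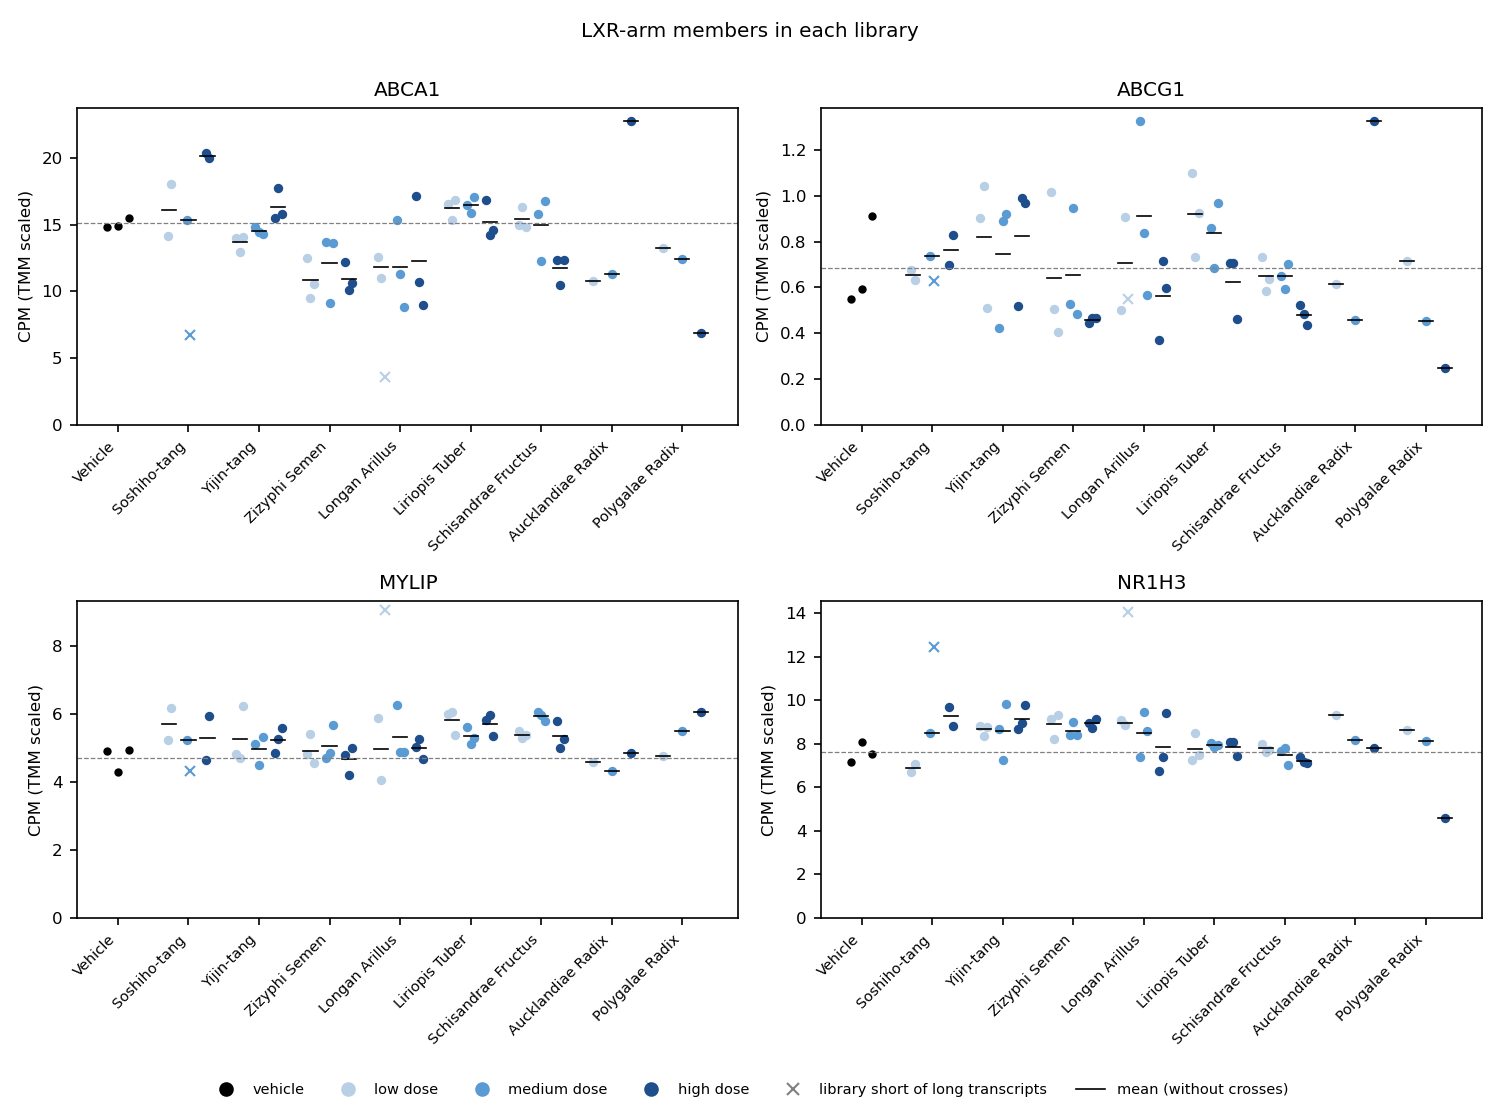
CPM of ABCA1, ABCG1, MYLIP and NR1H3 (y axis) in each library of vehicle and of each extract from the low to the high dose (x axis), with marks as in the plot of sterol genes. ABCA1 is at 20.0 and 20.4 CPM in Soshiho-tang high, 22.8 CPM in Aucklandiae Radix high and 6.9 CPM in Polygalae Radix high.

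Aucklandiae Radix and Polygalae Radix had 1 library a dose, so their values have no replicate check and no test. Changes are log2 ratios of CPM + 1, which understate the change of low genes, and past means at least 1.5-fold. Along the doses of Polygalae Radix (vehicle mean, 15.2, 76 and 380 µg/mL) INSIG1 had 39.2, 40.2, 36.9 and 26.4 CPM. HMGCS1 had 171.6, 160.8, 139.1 and 99.1 CPM along the same steps. SQLE had 121.8, 115.2, 113.6 and 82.2 CPM, and IDI1 had 57.4, 55.1, 53.8 and 37.9 CPM. The drop lay mainly between the medium and the high dose in all 4.
At 380 µg/mL 20 of 30 members were lower than the vehicle mean past 1.5-fold and 0 higher, where 22.5% of 13880 genes were lower and 14.6% higher. The members' median log2 ratio was -0.68, and that of all genes was -0.04. Over the low dose 18 were lower and 0 higher, where 21.3% of genes were lower and 12.8% higher. ACAT2, which joins acetyl-CoA units at the head of the path, had 7.37 CPM, against 29.4 CPM in vehicle (log2 ratio -1.86). DHCR7 had 30.7 CPM, against 91.0 CPM in vehicle (log2 ratio -1.54). SC5D, NR1H2 and MYLIP were among the members nearest to or above vehicle, with log2 ratios of 0.22, -0.03 and 0.31. ABCA1 had 6.88 CPM, against 15.1 CPM in vehicle (log2 ratio -1.03).
The A549 markers, a sum led by ALDH1A1 in vehicle, moved with these values. They summed to 14870, 9645 and 2858 CPM along the doses of Polygalae Radix, and the fibroblast and leukocyte sums at 380 µg/mL were 17.1 and 0.60 CPM. Their part in the result was not tested.

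Along the doses of Aucklandiae Radix (vehicle mean, 14.8, 74 and 370 µg/mL) INSIG1 had 39.2, 37.1, 37.6 and 23.7 CPM. HMGCS1 had 171.6, 148.4, 138.3 and 90.4 CPM, the lowest of the 60 libraries at the top dose. SQLE had 121.8, 117.5, 116.3 and 91.6 CPM, and IDI1 had 57.4, 58.3, 52.5 and 40.9 CPM. At 370 µg/mL 6 of 30 members were lower than vehicle past 1.5-fold and 0 higher, where 4.98% of genes were lower and 5.51% higher. The 6 were HMGCS1, FDPS, ACAT2, INSIG1, LBR and EBP, with log2 ratios of -0.92 to -0.66. The members' median log2 ratio was -0.32 and that of all genes -0.02. Over the low dose 4 members were lower and 1 higher, where 3.39% of genes were lower and 4.08% higher.
The higher member was ABCA1. It had 15.1, 10.8, 11.3 and 22.8 CPM along the dose steps, so the top dose held the highest value of the 60 libraries, with a log2 ratio of 1.02 over the low dose and 0.56 over vehicle. ABCG1 had 0.68, 0.62, 0.46 and 1.33 CPM, with few counts behind each value. NPC1 had 55.5, 45.4, 50.8 and 67.2 CPM. MYLIP had 4.7, 4.6, 4.3 and 4.9 CPM and NR1H3 7.6, 9.3, 8.2 and 7.8 CPM, within the range of the other retained libraries. The A549 markers summed to 15200, 13590 and 10160 CPM along the doses. At 370 µg/mL the fibroblast sum was 24.0 CPM and the leukocyte sum 5.14 CPM, against 34.9 to 35.8 and 2.10 to 2.27 CPM in vehicle. Their part in the result was not tested.

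Set side by side, the 19 sterol synthesis members and the 3 LXR targets took different positions by extract. The mean log2(CPM + 1) over the 19, minus the vehicle mean, was 0.26 and 0.28 in the Soshiho-tang high libraries and 0.08 to 0.15 in the Yijin-tang high libraries, against -0.01 to 0.01 in vehicle. It was -0.41 in Aucklandiae Radix high and -0.99 in Polygalae Radix high. The mean over ABCA1, ABCG1 and MYLIP was 0.14 and 0.26 in Soshiho-tang high, 0.36 in Aucklandiae Radix high and -0.38 in Polygalae Radix high, against -0.07 to 0.10 in vehicle. In Zizyphi Semen high it was -0.29 to -0.16, with the sterol mean at -0.02 to 0.01. The LXR target mean was -0.26 to -0.01 in Longan Arillus high and -0.20 to -0.05 in Schisandrae Fructus high. It was -0.18 and -0.23 in Aucklandiae Radix low and medium, but -0.02 to 0.20 in Yijin-tang high and -0.03 to 0.15 in Liriopis Tuber high. At the low dose this mean was 0.01 and 0.18 in Soshiho-tang and -0.26 to 0.02 in Zizyphi Semen, so both overlapped their high dose, and 0.13 to 0.25 in Liriopis Tuber. It was 0.03 to 0.08 in Schisandrae Fructus low, above every high library of that extract. Yijin-tang low had 0.03 to 0.04 and the retained Longan Arillus low libraries -0.14 and -0.04, which overlapped their high dose. ABCG1, with few counts, weighs as much as ABCA1 and MYLIP in this mean, which was not tested. Set and extract cannot be told apart in these differences from vehicle.

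**Figure D5:**
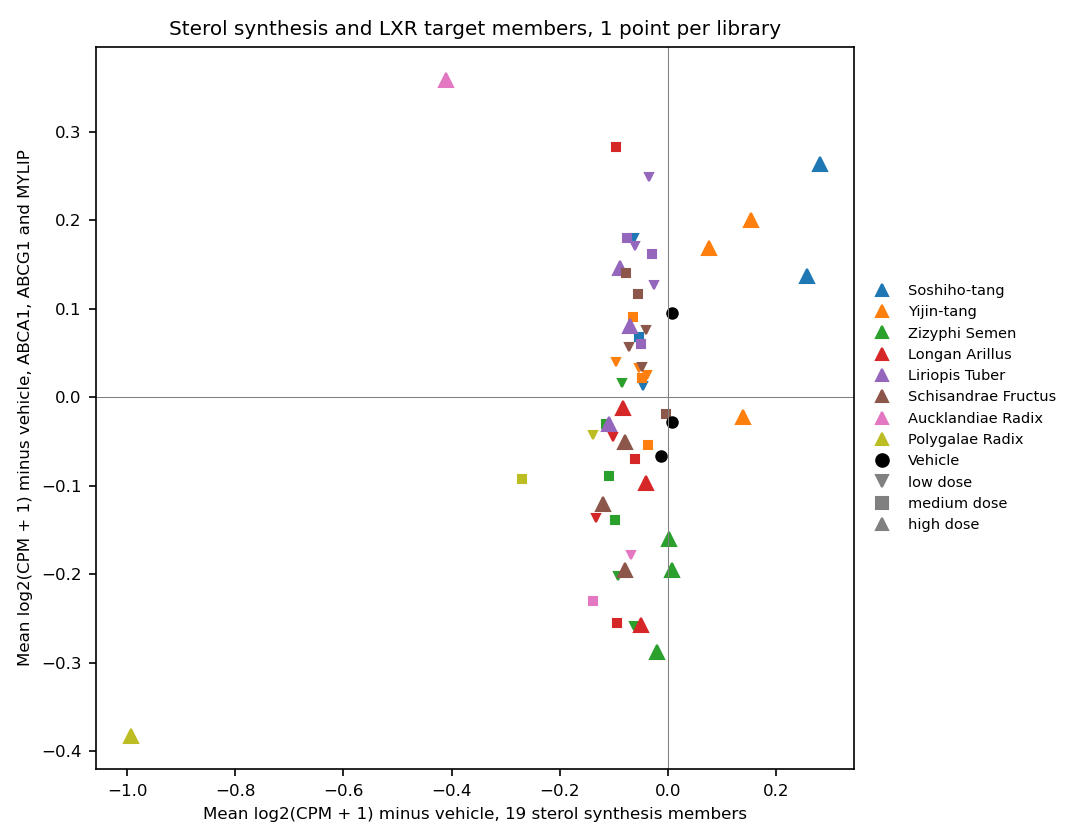
Mean log2(CPM + 1) minus vehicle of the 19 sterol synthesis members (x axis) and of ABCA1, ABCG1 and MYLIP (y axis), 1 point per library, by extract (colour) and dose (shape), without both libraries short of long transcripts. Soshiho-tang high lies at the right, at 0.26 and 0.28, Aucklandiae Radix high at the upper left, at -0.41 and 0.36, and Polygalae Radix high at the lower left, at -0.99 and -0.38.

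A further 28 genes of the pathway, which are no members, were counted, and 25 were tested. At the high against the low dose Soshiho-tang raised ACSL3, an acyl-CoA synthetase (log2 change 0.30 ± 0.043), and the oxysterol binding protein OSBP (0.17 ± 0.053), 2 of 25, and lowered 0, where 5.31% of all genes were higher. In the 54-library fit ACSL3 was called (adjusted p = 0.0348, edgeR) and OSBP was not. Schisandrae Fructus lowered the lysophospholipid acyltransferase LPCAT3 (-0.19 ± 0.052) and ACSL3 (-0.18 ± 0.035) and raised RXRA, the partner of the LXR receptors (0.12 ± 0.034), where 0.669% of all genes were lower and 0.946% higher. Zizyphi Semen lowered ACSL3 (-0.17 ± 0.035), where 0.725% of all genes were lower. None of these 4 was called in the 54-library fit. In Yijin-tang, Liriopis Tuber and Longan Arillus 0 of 25 were called, with 2, 3 and 3 at an unadjusted p below 0.05 (8.92%, 5.25% and 10.9% of all genes) and 0 by DESeq2. With Longan Arillus low replicate 3 kept, in the 54-library fit, 4 were higher and 3 lower for that extract, where 676 of 17826 genes were higher and 2668 lower.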

How the data were processed

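RNA of 60 libraries in 25 groups was measured. Per the labels' protocols libraries were directional mRNA libraries. RSEM 1.3.3, STAR 2.7.3a, Trim Galore 0.6.5, FastQC 0.11.9 and the build hg38 (GRCh38) are in the submitters' processing notes. The authors deposited expected counts per gene, not scaled for depth or length, of which 10.485% were not whole, and they were rounded here. RSEM shares reads between near-identical copies. The annotation release is not given in the sources used here. Symbols were matched through Ensembl identifiers, and exon lengths and overlaps came from GENCODE 29.

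Replicate libraries differed beyond sampling noise (chi-square over its degrees of freedom at least 1.863 in 51 pairs, genes with at least 20 counts in a pair), so each counted once. Replicate numbers were not taken as pairs in the main fit. CPM are counts per 1e6 counts scaled by TMM factors. Overlap between groups was read for the named genes only, and the share of all genes without overlap was not counted. The 51 libraries of 18 groups were fitted together with edgeR 4.0.16 in R 4.3.3 (quasi-likelihood F test, robust, TMM, filterByExpr by group), with 34 contrasts over 17646 genes, tested on simulated data. An SE is the log2 change over the square root of F. Alternatives were the 54-library fit (17826 genes), DESeq2 1.42.0, its size factors, no filter, replicate blocks, own set and vehicle only, leaving out each library, and for single libraries pseudocounts and folds. Single libraries were compared as log2(CPM + 1), and folds counted over 13880 genes with a mean of at least 1 CPM.

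The members, lists, the choice of 51 libraries and the rule for named genes were made with earlier results of these data known. The rule accounts for all 30 members, with full values for up to 5 per extract with the largest called change of high against low, for INSIG1, HMGCS1, SQLE and IDI1, and for ABCA1, ABCG1, MYLIP and NR1H3. Other genes were named for their role or place in a range.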

Additional observations from a re-analysis of the deposited data

Results flagged for a closer look

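The dose effects of the 2 water extracts differed in 8 members by a test of the difference itself (edgeR, high minus low dose of Soshiho-tang minus the same of Yijin-tang, on the log2 scale, with SE). INSIG1 differed most, by 0.65 ± 0.088 (adjusted p = 1.26e-06). MVD differed by 0.49 ± 0.11 (adjusted p = 0.00434) and STARD4 by 0.40 ± 0.093 (adjusted p = 0.00778). NPC1 differed by 0.30 ± 0.071 (adjusted p = 0.00768), DHCR7 by 0.27 ± 0.063 (adjusted p = 0.00895) and FDFT1 by 0.26 ± 0.057 (adjusted p = 0.00272). HMGCS1 differed by 0.21 ± 0.050 (adjusted p = 0.0106) and SQLE by 0.18 ± 0.053 (adjusted p = 0.0494). In the 54-library fit INSIG1 alone of these 8 was called, where 46 of 17826 genes were above 0 and 5 below.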

How the results depend on the processing

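Of 34 changes of single members called at the high against the low dose, 408 values under alternatives kept the direction in every case, 348 with the call and 60 without. Calls were lost in 21 changes in the 54-library fit, 6 with no filter on low counts, 2 in the fit of the own set and vehicle only, and 9 when 1 library was left out, and in 0 with DESeq2, its size factors or either block. In the 54-library fit 676 of 17826 genes were higher and 2668 lower for Longan Arillus high against low. Counts of members called, high against low, were 2 for Yijin-tang, 11 for Soshiho-tang, 0 for Schisandrae Fructus, 6 for Longan Arillus and 0 for Zizyphi Semen in that fit. Against vehicle they were 0 for Yijin-tang, Liriopis Tuber, Longan Arillus and Zizyphi Semen and 1 for Schisandrae Fructus. The 54-library fit called 4 in Yijin-tang high minus Soshiho-tang high, 0 in Liriopis Tuber high minus Schisandrae Fructus high, and 1 in the difference of dose effects of the water extracts. With no filter, high against low had 2 for Schisandrae Fructus and 2 for Zizyphi Semen, Zizyphi Semen against vehicle 5, and Liriopis Tuber minus Schisandrae Fructus 2. With own set and vehicle only, Schisandrae Fructus high against low had 2, Liriopis Tuber minus Schisandrae Fructus 2, and Longan Arillus against vehicle 1. DESeq2 gave 3 for Liriopis Tuber against vehicle, 2 for Longan Arillus high against low, 1 for it against vehicle, and 3 for Longan Arillus minus Zizyphi Semen. Size factors gave 1 for Longan Arillus against vehicle. For these changed counts the cause was not tested.

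Leaving out 1 library gave, high against low, 10 to 12 for Yijin-tang, 15 to 16 for Soshiho-tang, 0 to 1 for Schisandrae Fructus and 1 to 2 for Zizyphi Semen. Against vehicle it gave 7 to 13 for Yijin-tang, 17 to 18 for Soshiho-tang, 3 to 5 for Liriopis Tuber, 7 to 10 for Schisandrae Fructus, 0 to 3 for Longan Arillus and 5 to 7 for Zizyphi Semen. The pairs gave 11 to 15 for Yijin-tang minus Soshiho-tang and 0 to 1 for Longan Arillus minus Zizyphi Semen, and the dose effects of the water extracts 3 to 11. Same-numbered libraries of a set had a median correlation of deviations of -0.033, 0.020 and 0.145 in sets 8, 9 and 10. For libraries of different numbers the medians were -0.003, -0.018 and -0.069. In set 10 the same-numbered values ran from -0.302 to 0.824 and the others from -0.76 to 0.594. Libraries with the same number were thus more alike in that set by the median. The main fit did not take the numbers as pairs, and the blocks are given as alternatives. With the replicate block by number, high against low had 13 for Yijin-tang, 17 for Soshiho-tang, 1 for Schisandrae Fructus and 5 for Zizyphi Semen. With the block by set and number Longan Arillus had 1 and Zizyphi Semen 6. At a 2-fold limit Polygalae Radix high had 10 members and Aucklandiae Radix high 0. At the lowest of the fold limits tried Aucklandiae Radix high had 18, of which 15 were lower and 3 higher. The share of all genes at these limits was not counted. Precision is limited by 2 or 3 libraries a group, and by depth for ABCG1.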
